A study of Mus musculus with 20 samples.

Results

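Toll-like receptors are the sensors of innate immunity that recognise microbial products and nucleic acids, and Cd14 is the co-receptor that delivers lipopolysaccharide to Tlr4. The rows of the gene table whose name is Tlr1, Tlr2, Tlr3, Tlr4, Tlr5, Tlr7, Tlr8, Tlr9, Tlr13 or Cd14 are described here, 10 of 54532 gene entries. All 10 were detected well enough to be tested. Total liver RNA of mice was sequenced as polyadenylated RNA in 20 libraries, in 4 groups of 5. The groups were STING knockout after bile duct ligation (titles BDL_KO, ligated KO below), wild type after bile duct ligation (BDL_Wt, ligated WT), STING knockout after sham surgery (Sham_KO, sham KO) and wild type after sham surgery (Sham_Wt, sham WT). Ligation stops the outflow of bile and had lasted 7 days. STING, encoded by Tmem173, relays the sensing of cytosolic DNA to type I interferon genes. The strain, age and deleted part of Tmem173 are not given in the sources used here. They also do not say whether each liver is that of another animal, and the p-values therefore describe the spread among libraries.

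Toll-like receptors fall into receptors of the cell surface (Tlr1, Tlr2, Tlr4 and Tlr5 here), which bind lipopeptides, lipopolysaccharide or flagellin, and receptors of endosomes (Tlr3, Tlr7, Tlr8, Tlr9 and Tlr13), which bind RNA or DNA. Most signal through the adaptor Myd88 and Tlr3 through Ticam1, and both routes activate NF-kB and interferon regulatory factors. In the liver, which receives gut-derived microbial products with portal blood, these receptors are best known from Kupffer cells and recruited myeloid cells, and several are also found in sinusoidal endothelial cells, dendritic cells and B cells.

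Levels are given as FPKM, fragments scaled to the length of the transcript and to a size of the library, which the authors computed. That size was not the number of fragments assigned to genes. Assigned fragments came to 86.9 to 134.3% of it in ligated KO and 87.0 to 94.8% in ligated WT livers. In sham KO livers they came to 101.4 to 122.5% and in sham WT livers to 99.4 to 105.0%. FPKM over all genes summed to 315016 to 547332 per library, and levels and sums are compared on this scale. Differences between groups are given for the mean of log2(FPKM + 0.5), with the standard error that limma estimated, with the ligated group over the sham group or KO over WT, and a gene is said to have risen or fallen where its p-value, adjusted over all 14059 tested genes, lay below 0.05. The added 0.5 makes these differences smaller than the true change of low genes. Between 14.95 and 20.9 M fragments per library were assigned to genes, and no 2 libraries were identical. Tmem173 measured 0.840, 1.38, 0.638, 2.57 and 1.66 FPKM in ligated KO livers, against 2.89, 2.60, 4.60, 3.91 and 4.20 FPKM in ligated WT livers. It measured 1.06, 0.617, 0.588, 0.718 and 0.730 FPKM in sham KO livers, against 1.87, 0.843, 1.79, 1.69 and 2.34 FPKM in sham WT livers. The ligated groups did not overlap and the sham groups did, and the residual transcript checks the labels only in part. Among ligated KO livers, libraries BDL_KO_2248 and BDL_KO_2359 stood apart by the summed FPKM of markers. Macrophage, B cell, cholangiocyte and stellate cell sums were lower there and hepatocyte sums higher, with the values given further on. These libraries were highest of their group in FPKM summed over all genes, at 524471 and 480917, for which marker sums were not corrected. They were also the lowest of their group for 7 of the 10 genes, so counts of calls among the 10 genes and the pathway lists that involve ligated KO livers are given with and without them, which was decided with earlier results of these data known. Transcripts of the Y chromosome were present in 2 ligated KO, 3 ligated WT, 3 sham KO and 2 sham WT libraries.

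On ligation Cd14 and Tlr13 rose in KO livers and Tlr5 fell, and the other 7 genes did not pass the test. Of all tested genes 12.3% rose there and 12.9% fell. In WT livers ligation raised 9 of the 10 genes and lowered Tlr5, where 18.1% of all tested genes rose and 17.5% fell. After ligation, 7 of the 10 were lower in KO than in WT livers and none was higher. Over all tested genes 5.37% were lower and 3.46% higher. The groups did not overlap for 4 of these 7, all endosomal receptors, where 3.33% of all tested genes lay wholly below. Tlr9 lay within the sham range or just above it in ligated KO livers and well above it in ligated WT livers, the only group in which it reached the filter on low values. Without BDL_KO_2248 and BDL_KO_2359, which stood apart, 9 of the 10 genes passed the test for ligation in KO livers and 5 were lower in ligated KO than in ligated WT livers. Over all tested genes 18.8% rose and 18.2% fell in that test, and 3.36% were lower in ligated KO livers. Both libraries were the lowest of their group for 7 of the 10 genes, so their removal by itself raises the ligated KO mean of those 7. After sham surgery no gene of the 10 passed the test between KO and WT livers, where 2.97% of all tested genes did.

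**Figure D1:**
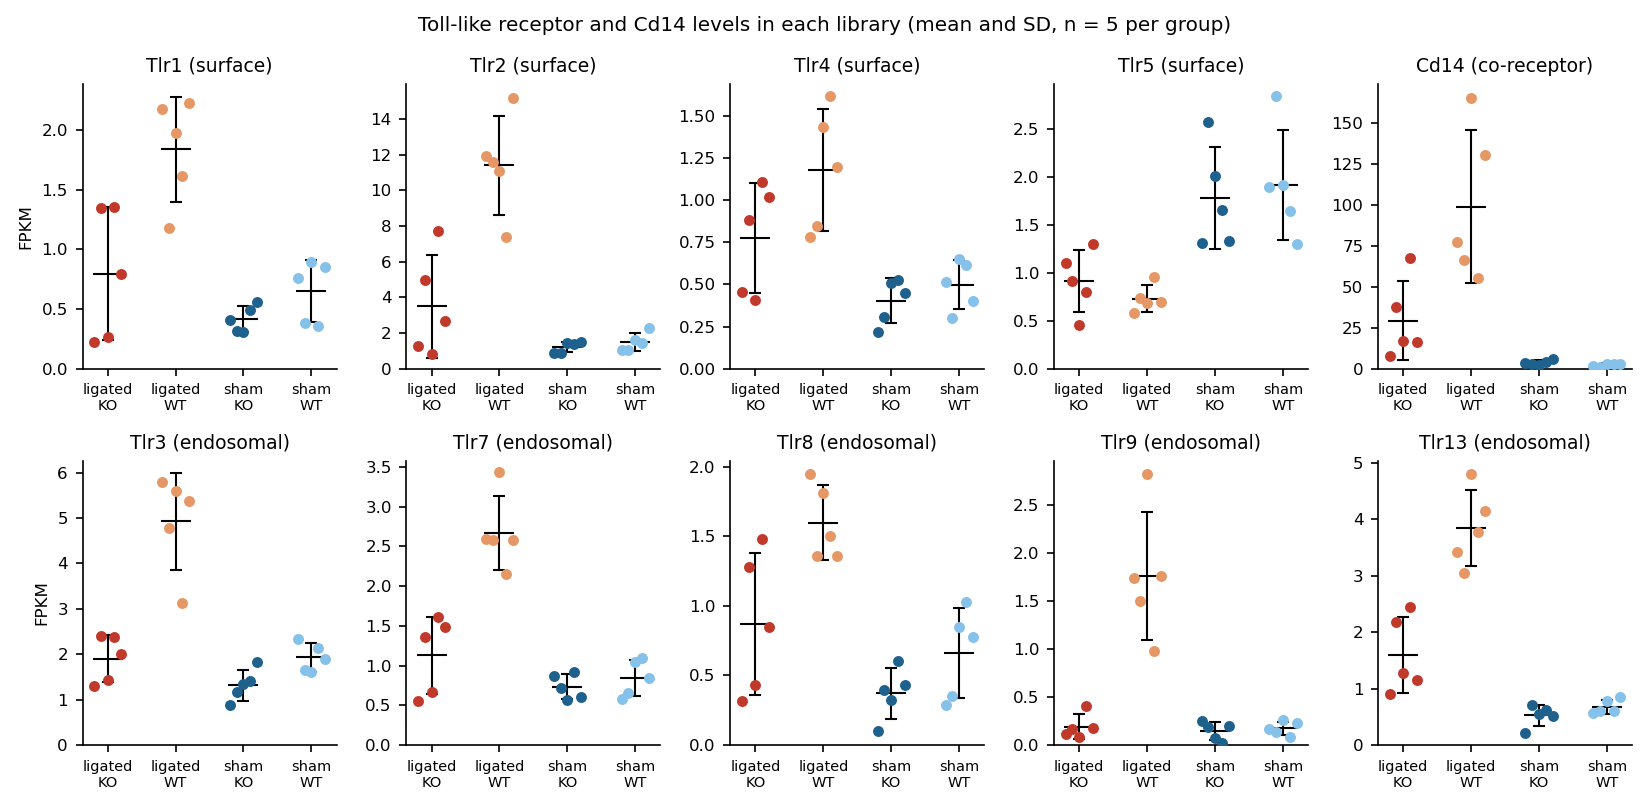
Level of each gene in FPKM (vertical axis, from 0) in each of the 20 libraries, with ligated KO, ligated WT, sham KO and sham WT livers from left to right. Points are libraries, the horizontal line is the mean and the bar the SD (n = 5). Tlr9 lies between 0.982 and 2.82 FPKM in ligated WT livers and at 0.409 FPKM or lower in the other 15 libraries, and Tlr5 is the only gene of the 10 whose ligated means lie below the sham means.

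Of the surface receptors, Tlr2, which binds bacterial lipopeptides together with Tlr1 or Tlr6, changed most. Tlr2 (ENSMUSG00000027995, GRCm38 chromosome 3, 83836272 to 83841767, minus strand) measured 1.26, 4.99, 0.804, 7.74 and 2.66 FPKM in ligated KO livers and 11.9, 11.6, 11.1, 7.39 and 15.2 FPKM in ligated WT livers. In sham KO livers it measured 0.884, 0.896, 1.43, 1.35 and 1.47 FPKM, and in sham WT livers 1.02, 1.04, 1.62, 1.41 and 2.27 FPKM. Every ligated WT library lay above every sham WT library, and a single ligated KO library, BDL_KO_2370, reached into the ligated WT range. On ligation Tlr2 changed by 0.92 ± 0.37 log2 units in KO livers (limma adjusted p = 0.0726, 95% interval 0.15 to 1.68) and rose by 2.60 ± 0.37 in WT livers (limma adjusted p = 3.04e-05). Between ligated livers Tlr2 was lower in KO by 1.87 log2 units (difference -1.87 ± 0.37, limma adjusted p = 0.00338), a ratio of mean FPKM of 0.305. The call was lost with only the ligated groups in the fit (adjusted p = 0.0645).

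Tlr1, the partner of Tlr2 for triacylated lipopeptides (ENSMUSG00000044827, chromosome 5, 64924679 to 64933563, minus strand), was lower throughout. It measured 0.219, 1.35, 0.263, 1.36 and 0.793 FPKM in ligated KO livers, 2.18, 1.18, 1.98, 1.62 and 2.23 FPKM in ligated WT livers, 0.409, 0.318, 0.308, 0.494 and 0.558 FPKM in sham KO livers and 0.761, 0.380, 0.890, 0.357 and 0.851 FPKM in sham WT livers. BDL_KO_2359 and BDL_KO_2248 lay below every sham library, while BDL_KO_2365 and BDL_KO_2370 lay within the ligated WT range. Its change on ligation was 0.39 ± 0.25 in KO livers (limma adjusted p = 0.266), and it rose in WT livers by 1.03 ± 0.25 (limma adjusted p = 0.00319). It was lower in ligated KO than in ligated WT livers, at -0.94 ± 0.25 (limma adjusted p = 0.0243). That call was lost without BDL_KO_2359 (adjusted p = 0.0780) or BDL_KO_2248 (0.0546), and without BDL_Wt_2233 (0.0678), BDL_Wt_2236 (0.0643) or BDL_Wt_2240 (0.0591). It was also lost without BDL_KO_2248 and BDL_KO_2359 together (-0.48 ± 0.20, adjusted p = 0.167) and with only the ligated groups in the fit (0.127).

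Tlr4, the receptor for lipopolysaccharide (ENSMUSG00000039005, chromosome 4, 66827584 to 66930284, plus strand), stayed below 2 FPKM. Its values were 0.456, 0.882, 0.410, 1.11 and 1.02 FPKM in ligated KO livers, 0.784, 0.847, 1.44, 1.62 and 1.20 FPKM in ligated WT livers, 0.220, 0.307, 0.511, 0.526 and 0.448 FPKM in sham KO livers and 0.517, 0.301, 0.654, 0.613 and 0.404 FPKM in sham WT livers. The ligated WT libraries lay above all sham libraries, and the ligated KO libraries overlapped both ligated WT and sham KO livers. Its change on ligation was 0.47 ± 0.19 in KO livers (limma adjusted p = 0.0676), and it rose in WT livers by 0.73 ± 0.19 (limma adjusted p = 0.00454). The difference between ligated KO and ligated WT livers, -0.41 ± 0.19, did not pass the test (limma adjusted p = 0.181, 95% interval -0.79 to -0.02).

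Tlr5, the flagellin receptor (ENSMUSG00000079164, chromosome 1, 182954788 to 182976044, plus strand), went the other way. It measured 1.10, 0.911, 0.460, 0.800 and 1.30 FPKM in ligated KO livers, 0.577, 0.740, 0.682, 0.962 and 0.695 FPKM in ligated WT livers, 1.31, 2.58, 2.01, 1.66 and 1.33 FPKM in sham KO livers and 1.90, 2.85, 1.92, 1.65 and 1.30 FPKM in sham WT livers. All 5 ligated KO libraries lay below all 5 sham KO libraries, if narrowly, and all 5 ligated WT libraries lay below all 5 sham WT libraries. Tlr5 fell in KO livers, at -0.69 ± 0.18 (limma adjusted p = 0.0110), and in WT livers, at -0.95 ± 0.18 (limma adjusted p = 0.000569). The call in KO livers was lost on the TPM scale (adjusted p = 0.0728) and with only both KO groups in the fit (0.0513). The ligated groups overlapped, and their difference of 0.18 ± 0.18 (95% interval -0.21 to 0.56) did not pass the test.

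Cd14 had the largest change of the 10 genes on ligation in either genotype. Cd14 (ENSMUSG00000051439, chromosome 18, 36725067 to 36726798, minus strand) measured 7.77, 37.5, 17.0, 67.6 and 16.0 FPKM in ligated KO livers and 77.0, 66.4, 165, 55.5 and 130 FPKM in ligated WT livers. In sham KO livers it measured 3.34, 3.03, 2.26, 4.20 and 5.86 FPKM, and in sham WT livers 1.37, 0.681, 2.81, 2.89 and 2.95 FPKM. Every ligated library lay above every sham library in both genotypes, and between ligated livers BDL_KO_2370 overlapped the WT range. Cd14 rose by 2.49 ± 0.46 log2 units in KO livers (limma adjusted p = 0.000879) and by 5.23 ± 0.46 in WT livers (limma adjusted p = 3.4e-07), and the ratio of mean FPKM in WT livers was 46.2. Between ligated livers it was lower in KO (difference -2.0 ± 0.46, limma adjusted p = 0.0118), a call that was lost without BDL_KO_2248 and BDL_KO_2359 (-1.38 ± 0.46, adjusted p = 0.0877) and with only the ligated groups in the fit (0.0824). Cd14 lies 985 kb from Tmem173, so an effect of the knocked-out gene and one of linked DNA around it cannot be told apart for Cd14.

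The endosomal receptors were led by Tlr9, which binds DNA rich in unmethylated CpG. Tlr9 (ENSMUSG00000045322, chromosome 9, 106222598 to 106226883, plus strand) measured 0.115, 0.170, 0.0845, 0.409 and 0.175 FPKM in ligated KO livers, and 1.74, 1.50, 2.82, 0.982 and 1.76 FPKM in ligated WT livers. In sham KO livers it measured 0.248, 0.184, 0.0742, 0.0183 and 0.197 FPKM, and in sham WT livers 0.169, 0.135, 0.257, 0.0858 and 0.230 FPKM. The ligated WT libraries stood clear of the other 15, which overlapped one another. These values rest on 4 to 26 fragments per library in ligated KO livers, 63 to 210 in ligated WT livers, 1 to 12 in sham KO livers and 5 to 16 in sham WT livers. Tlr9 reached 0.5 FPKM in ligated WT livers alone, and it is through these 5 libraries that it passed the filter on low values. It was lower in ligated KO than in ligated WT livers by 1.68 log2 units (difference -1.68 ± 0.18, limma adjusted p = 1.22e-05), with a ratio of mean FPKM of 0.108. On ligation it changed by 0.10 ± 0.18 in KO livers (limma adjusted p = 0.740, 95% interval -0.28 to 0.47) and rose by 1.70 ± 0.18 in WT livers (limma adjusted p = 1.97e-06).

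Tlr3, the receptor for double-stranded RNA (ENSMUSG00000031639, chromosome 8, 45395665 to 45411080, minus strand), measured 1.29, 2.41, 1.44, 2.37 and 2.01 FPKM in ligated KO livers and 5.79, 4.79, 5.59, 3.13 and 5.38 FPKM in ligated WT livers. In sham KO livers it measured 0.885, 1.16, 1.34, 1.42 and 1.82 FPKM, and in sham WT livers 2.33, 1.66, 1.60, 2.14 and 1.90 FPKM. The ligated groups did not overlap, and the ligated KO libraries overlapped both sham groups. Tlr3 was lower in ligated KO than in ligated WT livers, at -1.18 ± 0.17 (limma adjusted p = 0.000228). On ligation its change of 0.39 ± 0.17 in KO livers did not pass the test (limma adjusted p = 0.104), and it rose by 1.15 ± 0.17 in WT livers (limma adjusted p = 5.64e-05). An annotated antisense gene, Gm45542, overlaps Tlr3, and the labels do not say whether strand was used in counting, so reads of the pair cannot be told apart.

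Tlr13, which in mice recognises bacterial ribosomal RNA (ENSMUSG00000033777, chromosome X, 106143204 to 106160493, plus strand), rose in both genotypes. Its values were 0.899, 2.17, 1.28, 2.44 and 1.16 FPKM in ligated KO livers, 3.42, 3.04, 4.80, 3.78 and 4.15 FPKM in ligated WT livers, 0.218, 0.710, 0.554, 0.620 and 0.521 FPKM in sham KO livers and 0.562, 0.607, 0.775, 0.610 and 0.847 FPKM in sham WT livers. The order of levels was ligated WT, then ligated KO, then sham livers of both genotypes, and only the sham groups overlapped. Tlr13 rose by 0.99 ± 0.19 in KO livers (limma adjusted p = 0.000982) and by 1.87 ± 0.19 in WT livers (limma adjusted p = 1.12e-06), and it was lower in ligated KO than in ligated WT livers, at -1.10 ± 0.19 (limma adjusted p = 0.00106).

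Tlr7, a receptor for single-stranded RNA (ENSMUSG00000044583, chromosome X, 167304929 to 167330558, minus strand), measured 0.556, 1.36, 0.666, 1.61 and 1.48 FPKM in ligated KO livers, 2.59, 2.58, 3.43, 2.15 and 2.58 FPKM in ligated WT livers, 0.864, 0.714, 0.569, 0.918 and 0.610 FPKM in sham KO livers and 0.576, 0.656, 1.04, 1.10 and 0.844 FPKM in sham WT livers. All ligated WT libraries lay above all others, and ligated KO livers overlapped both sham groups. The difference between ligated KO and ligated WT livers was -1.0 ± 0.18 (limma adjusted p = 0.00207), and on ligation Tlr7 changed by 0.36 ± 0.18 in KO livers (limma adjusted p = 0.166) and rose by 1.24 ± 0.18 in WT livers (limma adjusted p = 4.67e-05). Tlr8, its neighbour on the X chromosome and in humans a receptor for single-stranded RNA as well (ENSMUSG00000040522, 167242696 to 167264329, minus strand), measured 0.316, 1.28, 0.430, 1.48 and 0.848 FPKM in ligated KO livers, 1.95, 1.36, 1.81, 1.50 and 1.36 FPKM in ligated WT livers, 0.10, 0.396, 0.324, 0.602 and 0.434 FPKM in sham KO livers and 0.291, 0.355, 0.847, 1.03 and 0.780 FPKM in sham WT livers. Here BDL_KO_2370 lay within the ligated WT range. Its change on ligation was 0.60 ± 0.24 in KO livers (limma adjusted p = 0.0774), and it rose in WT livers by 0.89 ± 0.24 (limma adjusted p = 0.00727). Tlr8 was the one endosomal receptor whose difference between ligated KO and ligated WT livers, -0.69 ± 0.24, did not pass the test (limma adjusted p = 0.0788, 95% interval -1.19 to -0.18). It passed without BDL_KO_2365 (adjusted p = 0.0419) or BDL_KO_2370 (0.0242), and with Y-linked transcripts as a covariate (0.0485).

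The promoters of Tlr2, Tlr3 and Tlr9 are shown because these are the surface and the endosomal receptors with the largest differences between ligated KO and ligated WT livers on the RefSeq list of promoters, which holds 7 of the 10 genes. Each window runs from 250 bases before to 50 bases after the annotated start on GRCm38.p6, at chr3:83841559-83841858 on the minus strand for Tlr2, chr8:45410331-45410630 on the minus strand for Tlr3 and chr9:106222348-106222647 on the plus strand for Tlr9. Capitals mark matches to GGNNNTTCC, a core of sites that NF-kB binds, in Tlr2, to AAANNGAAA, the core of interferon response elements, in Tlr3 and to GAGGAAG, a core that the myeloid factor PU.1 binds, in Tlr9, each searched on both strands. The NF-kB letters were chosen after the matches of a longer form, with 1 more G in front, had been seen, and the shorter form matches more windows, Tlr5 among them.
Tlr2: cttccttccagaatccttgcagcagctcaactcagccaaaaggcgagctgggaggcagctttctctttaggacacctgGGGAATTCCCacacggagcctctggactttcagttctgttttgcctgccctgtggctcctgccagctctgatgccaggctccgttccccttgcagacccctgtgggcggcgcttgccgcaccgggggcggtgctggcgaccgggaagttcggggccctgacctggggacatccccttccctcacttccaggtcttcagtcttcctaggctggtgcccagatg
Tlr3: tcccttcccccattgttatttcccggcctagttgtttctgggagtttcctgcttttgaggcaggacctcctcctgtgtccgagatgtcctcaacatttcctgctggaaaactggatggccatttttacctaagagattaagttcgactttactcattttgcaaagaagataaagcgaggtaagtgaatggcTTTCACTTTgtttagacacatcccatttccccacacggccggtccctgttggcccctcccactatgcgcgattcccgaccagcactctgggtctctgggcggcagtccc
Tlr9: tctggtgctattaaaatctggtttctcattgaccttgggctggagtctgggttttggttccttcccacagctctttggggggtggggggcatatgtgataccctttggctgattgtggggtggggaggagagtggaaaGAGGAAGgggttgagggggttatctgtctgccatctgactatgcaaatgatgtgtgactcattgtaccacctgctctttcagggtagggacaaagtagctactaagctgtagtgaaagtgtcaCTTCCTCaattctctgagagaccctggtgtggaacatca
In Tlr2 the NF-kB core is matched on both strands, overlapping from 172 and 171 bases before the start, and an interferon core (TTTCTCTTT, in lower case above) begins 191 bases before it. In Tlr3 the interferon core begins 59 bases before the start, and an NF-kB core (GGAGTTTCC, in lower case above) begins 210 bases before it. Tlr9 held 2 PU.1 cores, which begin 112 bases before and 11 bases after the start, and Tlr13 held 1. Tlr1 held 1 PU.1 core in its window at chr5:64933509-64933808, and no core of any kind in its other window, at chr5:64932650-64932949. Tlr5 held an NF-kB core 20 bases before its start. Of 32851 mouse promoter windows of this length, 18.5% held the NF-kB core, 10.6% the interferon core and 13.6% the PU.1 core. Tlr8 held none of these motifs in its window. A match describes the letters of the sequence and no binding was measured here.

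The first comparison addresses the response of liver to ligation. In KO livers 2 genes rose and 1 fell, where 12.3% of all tested genes rose and 12.9% fell. For these 3 the ligated and sham KO groups did not overlap, where 5.85% of all tested genes lay wholly above and 5.72% wholly below the sham range. The median change was 0.43 log2 units, against -0.01 over all tested genes. In WT livers 9 of the 10 genes rose and 1 fell, with no overlap between the groups for any of the 10, where 18.1% of all tested genes rose and 17.5% fell, and where 16.6% lay wholly above and 15.1% wholly below the sham range. There the median change was 1.19, against -0.02 over all tested genes. By ratio of mean FPKM in WT livers, Cd14 (46.2), Tlr9 (10.0), Tlr2 (7.78) and Tlr13 (5.64) led, Tlr7 (3.17), Tlr1 (2.84), Tlr3 (2.56), Tlr8 (2.41) and Tlr4 (2.36) followed, and Tlr5 stood at 0.380. In bulk tissue, more cells of a type and more RNA per cell cannot be told apart. Without BDL_KO_2248 and BDL_KO_2359, Cd14, Tlr1, Tlr2, Tlr3, Tlr4, Tlr7, Tlr8 and Tlr13 rose in KO livers and Tlr5 fell, 9 calls where 18.8% of all tested genes rose and 18.2% fell. Tlr9 then still did not pass, at 0.22 ± 0.21 (limma adjusted p = 0.433). The loss of BDL_KO_2359 alone gave 8 calls and that of BDL_KO_2248 alone gave 6.

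The next comparison asks what loss of STING does to these genes in ligated livers. In ligated KO livers 7 of the 10 genes were lower than in ligated WT livers by limma and none was higher by limma or voom, also at an unadjusted p under 0.05 in limma, where 5.37% of all tested genes were lower and 3.46% higher. The 7 were Tlr1, Tlr2, Cd14, Tlr3, Tlr7, Tlr9 and Tlr13, and for the last 4 every KO library lay below every WT library, which held for 3.33% of all tested genes. The median difference was -1.05 log2 units, against 0.01 over all tested genes. With only the ligated groups in the fit 4 of the 10 were lower, namely Tlr3, Tlr7, Tlr9 and Tlr13. Among libraries without Y-linked transcripts, a fit with few libraries per group, none was, where 0.0569% of all tested genes were. Without BDL_KO_2248 and BDL_KO_2359, 5 genes were lower (Tlr2, Tlr3, Tlr7, Tlr9 and Tlr13), where 3.36% of all tested genes were. In that fit Tlr9 stood at -1.55 ± 0.21 (limma adjusted p = 0.000282), Tlr2 at -1.16 ± 0.27 (0.0172), Tlr3 at -0.95 ± 0.18 (0.00343), Tlr13 at -0.87 ± 0.19 (0.0108) and Tlr7 at -0.67 ± 0.15 (0.0117). Among ligated KO livers the library BDL_KO_2370, which had the highest Tmem173 level of its group, had the highest level of 8 of the 10 genes, all but Tlr3 and Tlr5. It also had the highest summed Kupffer cell (560), monocyte (244), neutrophil (18.6) and plasmacytoid dendritic cell (1.18) markers of its group. The same held for its sinusoidal endothelial (43.0), cholangiocyte (27.2) and stellate cell (45.3) markers. The B cell and hepatocyte sums of BDL_KO_2370 were not the highest. Whether Tmem173 or the cell content bears on these levels was not tested.

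**Figure D2:**
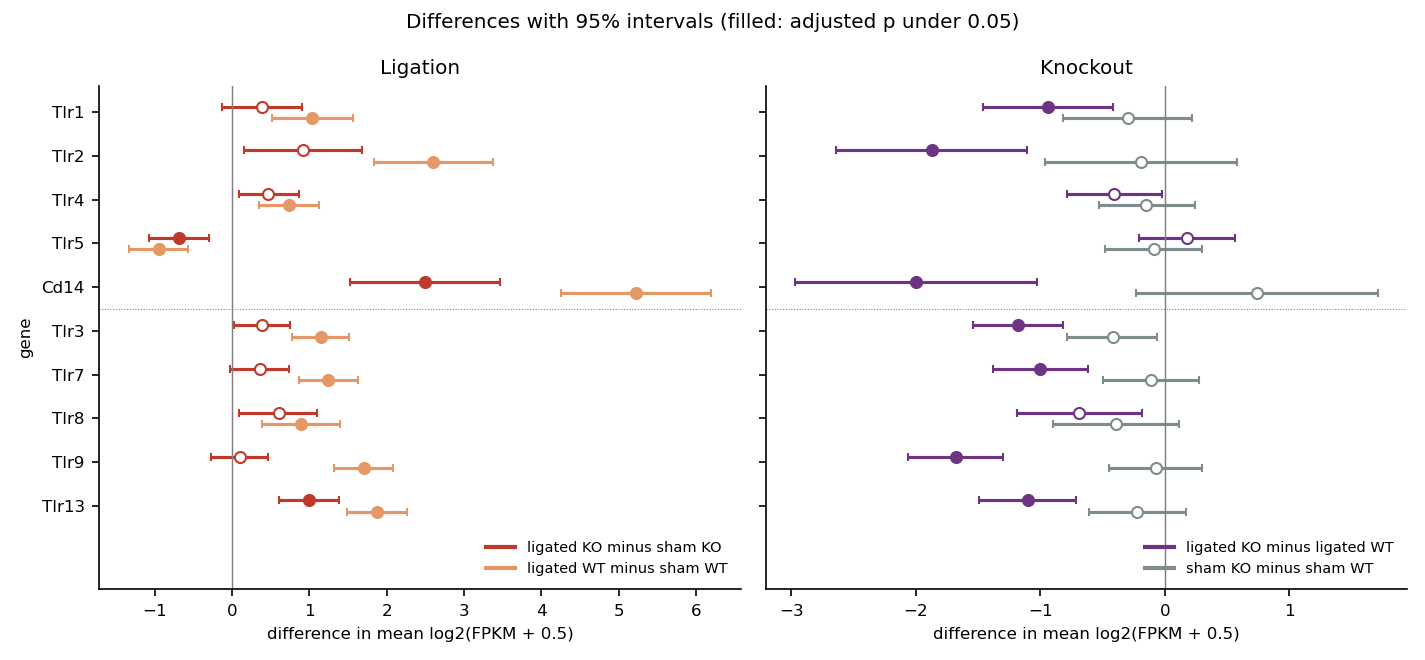
Difference in mean log2(FPKM + 0.5) with its 95% interval (horizontal axis) for each gene (vertical axis), for ligation in KO and WT livers (left) and for knockout after ligation and after sham surgery (right). Filled points have an adjusted p under 0.05. Tlr9 shows the widest separation of both ligation responses relative to its intervals, 0.10 in KO and 1.70 in WT livers, and no gene of the 10 is filled for knockout after sham surgery.

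A difference between the ligation responses of KO and WT livers was tested by the interaction of genotype and surgery. Tlr9 alone of the 10 genes passed, with a difference of -1.60 ± 0.26 (limma adjusted p = 0.0146), where 0.220% of all tested genes passed in this direction. Tlr9 passed the filter on low values only through ligated WT livers, where it was high, and in the other 3 groups it rests on 1 to 26 fragments per library. With no filter the call remained (adjusted p = 0.0261). The call held without BDL_KO_2248 and BDL_KO_2359 (-1.48 ± 0.27, adjusted p = 0.0224). It was lost in voom, a weighted form of limma run on fragments recovered from the FPKM values (-2.68 ± 0.79, adjusted p = 0.186), and Tlr9 could not be tested with a filter at 1 FPKM. For the other 9 genes the difference ran from -2.74 ± 0.66 for Cd14 (adjusted p = 0.0848) to 0.27 ± 0.26 for Tlr5 (0.736). Without BDL_KO_2370, Cd14 (-3.13 ± 0.58, adjusted p = 0.0151) and Tlr2 (-2.03 ± 0.43, adjusted p = 0.0295) passed as well.

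After sham surgery, KO and WT livers were compared in the same way. None of the 10 genes passed the test by limma or by voom, where 2.97% of all tested genes did by limma and 2.40% by voom, and 1 of the 10, Tlr3, had an unadjusted p under 0.05. Tlr3 averaged 1.32 ± 0.343 FPKM in sham KO livers and 1.93 ± 0.312 FPKM in sham WT livers (SD, n = 5 each), a difference of -0.42 ± 0.17 (limma adjusted p = 0.205, 95% interval -0.79 to -0.06). Cd14 averaged 3.74 ± 1.38 FPKM in sham KO livers and 2.14 ± 1.05 FPKM in sham WT livers (SD, n = 5 each), a difference of 0.74 ± 0.46 whose 95% interval ran from -0.23 to 1.71. The median over the 10 genes was -0.17, against 0.01 over all tested genes.

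Endosomal and surface receptors were contrasted within each library by subtracting the mean log2 level of Tlr1, Tlr2, Tlr4 and Tlr5 from that of Tlr3, Tlr7, Tlr8, Tlr9 and Tlr13. The difference was -0.136 ± 0.236 in ligated KO livers, 0.231 ± 0.208 in ligated WT livers, -0.348 ± 0.0919 in sham KO livers and -0.284 ± 0.129 in sham WT livers (SD, n = 5 each). Endosomal receptors thus gained 0.21 log2 units on surface receptors with ligation in KO livers and 0.52 in WT livers, and stood 0.37 units lower relative to them in ligated KO than in ligated WT livers (difference -0.37). Without BDL_KO_2248 and BDL_KO_2359 the gain in KO livers was 0.08 and the difference between ligated KO and ligated WT livers -0.50, and with a pseudocount of 0.1 the gains were 0.36 in KO and 0.80 in WT livers. This contrast turned on Tlr5. With Tlr5 left out of the surface receptors, an alternative added after seeing the data, these values became -0.11 for ligation in KO livers, -0.09 for ligation in WT livers and -0.05 for knockout after ligation. No test was made, since the genes were chosen with results known. By count, 4 of the 5 endosomal and 2 of the 4 surface receptors were lower in ligated KO than in ligated WT livers, and the 4 endosomal ones were those without overlap.

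In summed FPKM, a scale per length that lets genes be added, endosomal receptors made up 51.6 ± 9.03% of the 9 receptors in ligated KO livers, 49.4 ± 3.89% in ligated WT livers, 44.9 ± 3.23% in sham KO livers and 48.4 ± 4.52% in sham WT livers (SD, n = 5 each). These shares overlapped between all groups compared. The summed level of the endosomal receptors averaged 5.69 FPKM in ligated KO livers, 14.8 in ligated WT livers, 3.10 in sham KO livers and 4.29 in sham WT livers. That of the surface receptors averaged 5.98 FPKM in ligated KO livers, 15.2 in ligated WT livers, 3.80 in sham KO livers and 4.54 in sham WT livers. Tlr2 alone held 25.9 ± 10.3% of the sum in ligated KO livers and 37.9 ± 5.34% in ligated WT livers, against 17.5 ± 3.14% in sham KO livers and 16.4 ± 4.63% in sham WT livers.

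**Figure D3:**
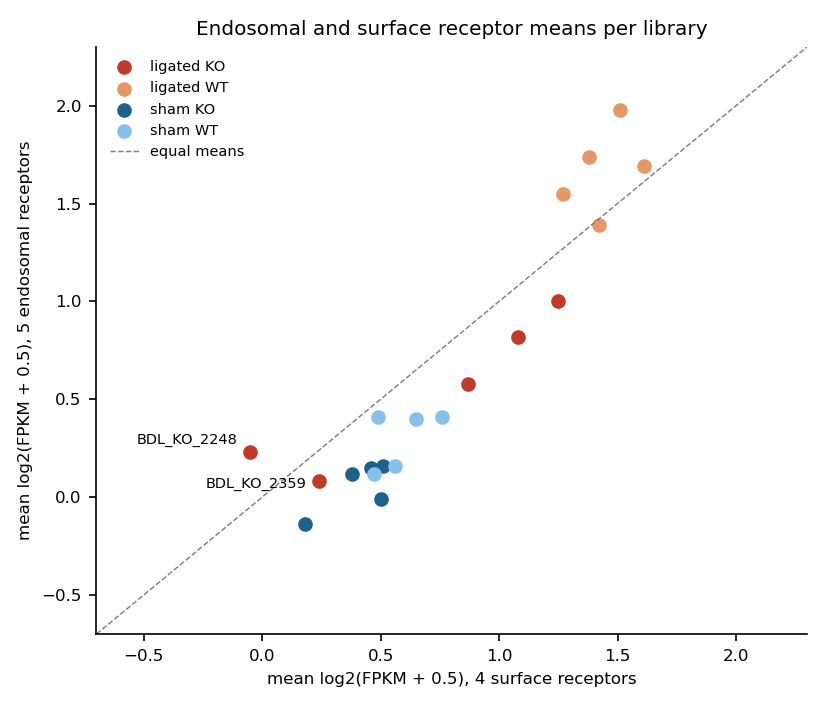
Mean log2(FPKM + 0.5) of the 5 endosomal receptors (vertical axis) against that of the 4 surface receptors (horizontal axis) in each of the 20 libraries, with a dashed line of equal means. Of the ligated WT libraries 4 lie above the line and the sham libraries below it, and among ligated KO livers only BDL_KO_2248 lies above it, at a difference of 0.28.

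The rest of the pathway was read from 7 lists with 66 genes, of which 56 were tested. On ligation 11 of the 56 rose and 2 fell in KO livers (22 rose and 3 fell without BDL_KO_2248 and BDL_KO_2359), and 28 rose and 3 fell in WT livers. In ligated KO livers 20 were lower than in ligated WT livers and none was higher, and 9 were lower without BDL_KO_2248 and BDL_KO_2359. After sham surgery 1 gene, Irf7, was lower in KO livers. With only the sham groups in the fit 7 were lower there, and also 7 without BDL_KO_2248 and BDL_KO_2359. In the interaction 1 gene, Tnfaip3, passed. The shares over all tested genes are those given above for each comparison, and none is given for the other sham fits. Of the 10 untested genes, Il6, Il10, Il12b, Ptgs2 and Cd40, which receptor signalling can induce, stayed at or below 0.846 FPKM in every library.

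Of the other receptors, Tlr6, which pairs with Tlr2, averaged 0.345 ± 0.203 FPKM in ligated KO livers and 0.803 ± 0.166 FPKM in ligated WT livers (SD, n = 5 each). It rose on ligation in WT livers (0.78 ± 0.17, limma adjusted p = 0.00134) and was lower in ligated KO than in ligated WT livers (-0.65 ± 0.17, limma adjusted p = 0.0219), a call that was lost without BDL_KO_2248 and BDL_KO_2359 (-0.40 ± 0.16, adjusted p = 0.140). Tlr12 did not pass any of the tests. Among the 7 genes of ligand handling, 1 rose in KO livers (3 without both libraries), 5 rose and 1 fell in WT livers, and 2 were lower in ligated KO than in ligated WT livers (also 2 without both libraries, Cd180 and Lbp). Cd36, a scavenger receptor that assists Tlr2, rose in KO livers (1.56 ± 0.26, limma adjusted p = 0.000312) and in WT livers (1.66 ± 0.26, limma adjusted p = 7.42e-05). Lbp, the plasma protein that carries lipopolysaccharide to Cd14, changed by 0.63 ± 0.30 in KO livers (limma adjusted p = 0.127) and rose by 0.95 ± 0.30 in WT livers (limma adjusted p = 0.0172). Cd180 and Ly86, the subunits of a receptor related to Tlr4, were lower in ligated KO than in ligated WT livers, Cd180 at -1.26 ± 0.26 (limma adjusted p = 0.00527) and Ly86 at -1.17 ± 0.28 (0.0150). Without both libraries Cd180 passed (-0.75 ± 0.19, adjusted p = 0.0258) and Ly86 did not (0.0786). After sham surgery the differences between KO and WT livers were -0.93 ± 0.26 for Cd180 (limma adjusted p = 0.0602) and -0.89 ± 0.28 for Ly86 (0.0985). Their interactions, -0.32 ± 0.37 for Cd180 and -0.28 ± 0.40 for Ly86, did not pass the test.

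Endosomal receptors need Unc93b1 for transport and proteases such as cathepsins and legumain for cleavage. Of 8 tested genes of this list, 4 rose on ligation in KO livers (5 without BDL_KO_2248 and BDL_KO_2359) and 3 in WT livers, and 2 were lower in ligated KO than in ligated WT livers (1 without both, Ctss). Unc93b1 rose in KO livers by 0.51 ± 0.18 (limma adjusted p = 0.0407) and in WT livers by 0.68 ± 0.18 (limma adjusted p = 0.00535). The lower genes were Ctss, cathepsin S, at 62.8 ± 29.1 FPKM in ligated KO livers and 127 ± 17.8 FPKM in ligated WT livers (SD, n = 5 each), and Lgmn, legumain, at -0.72 ± 0.21 (limma adjusted p = 0.0409). After sham surgery the differences between KO and WT livers were -0.78 ± 0.27 for Ctss (limma adjusted p = 0.125) and -0.60 ± 0.21 for Lgmn (0.139). Adaptors and proximal kinases changed less, with a median on ligation of 0.01 over 17 tested genes in KO livers and 0.12 in WT livers. Ikbke, a kinase of interferon regulatory factors, rose by 1.05 ± 0.25 in KO livers (limma adjusted p = 0.00606) and by 1.61 ± 0.25 in WT livers (limma adjusted p = 9.3e-05). Myd88, at 7.76 ± 0.605 FPKM in ligated KO livers and 11.7 ± 1.91 FPKM in ligated WT livers (SD, n = 5 each), was among 4 of these genes lower in ligated KO livers (-0.55 ± 0.12, limma adjusted p = 0.00777), with Ikbke, Traf3 and Irak2. Without both libraries Myd88 passed (-0.51 ± 0.14, adjusted p = 0.0396), Tbk1 passed as well (-0.55 ± 0.11, 0.00802) and the other 3 did not.

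Downstream, Irf7, the interferon regulatory factor that endosomal receptors and interferon itself engage, stood apart. It averaged 13.1 ± 7.85 FPKM in ligated KO livers and 85.7 ± 31.3 FPKM in ligated WT livers, and 8.80 ± 1.82 FPKM in sham KO livers and 59.9 ± 9.99 FPKM in sham WT livers (SD, n = 5 each). It was lower in KO livers after ligation (-2.79 ± 0.32, limma adjusted p = 2.22e-05) and after sham surgery (-2.71 ± 0.32, limma adjusted p = 0.000271), and its ligation responses passed in neither genotype. Without BDL_KO_2248 and BDL_KO_2359 it rose on ligation in KO livers (0.96 ± 0.26, adjusted p = 0.00820). Of the 6 transcription factors listed, 4 were lower in ligated KO than in ligated WT livers, namely Irf7, Irf5, Irf8 and Nfkb1, and without both libraries Irf7 alone was (-2.19 ± 0.26, adjusted p = 0.000101). Of the 8 tested inhibitors of receptor signalling, 1 rose on ligation in KO livers and 4 in WT livers, and 2 were lower in ligated KO than in ligated WT livers, with the same counts in KO livers without both libraries. Tnfaip3, which removes ubiquitin from signalling proteins, averaged 1.89 ± 1.29 FPKM in ligated KO livers and 6.21 ± 1.63 FPKM in ligated WT livers (SD, n = 5 each), and was lower in KO by 1.62 log2 units (difference -1.62 ± 0.26, limma adjusted p = 0.000744). Socs1, an inhibitor of cytokine signalling, was lower by 1.21 log2 units (difference -1.21 ± 0.22, limma adjusted p = 0.00185).

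Of the 8 tested genes that receptor signalling induces, 3 rose on ligation in KO livers (7 without BDL_KO_2248 and BDL_KO_2359) and 7 in WT livers, and 5 were lower in ligated KO than in ligated WT livers (1 without both). The neutrophil chemokine Cxcl1 rose by 3.69 ± 0.56 in KO livers (limma adjusted p = 0.000154) and by 3.39 ± 0.56 in WT livers (limma adjusted p = 0.000136). Its interaction was 0.31 ± 0.79 with a 95% interval from -1.35 to 1.96, wide enough to hold large differences in either direction. Ccl4, a chemokine of macrophages, was lower in ligated KO livers (-1.47 ± 0.29, limma adjusted p = 0.00364), as were Cxcl2 (-1.16 ± 0.28, 0.0153), Il1b (-0.95 ± 0.27, 0.0322), Nfkbiz (-0.85 ± 0.23, 0.0254) and Nfkbia. Without both libraries Ccl4 passed (-1.06 ± 0.28, adjusted p = 0.0323), and the other 4 had adjusted p-values from 0.0771 for Nfkbia to 0.231 for Il1b. After sham surgery none of these 5 passed between KO and WT livers in the full fit. The differences there were -0.91 ± 0.27 for Il1b (limma adjusted p = 0.0756), -0.56 for Ccl4, -0.38 for Nfkbia, -0.10 for Cxcl2 and -0.09 for Nfkbiz. The interaction of Il1b was -0.04 ± 0.38.

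**Figure D4:**
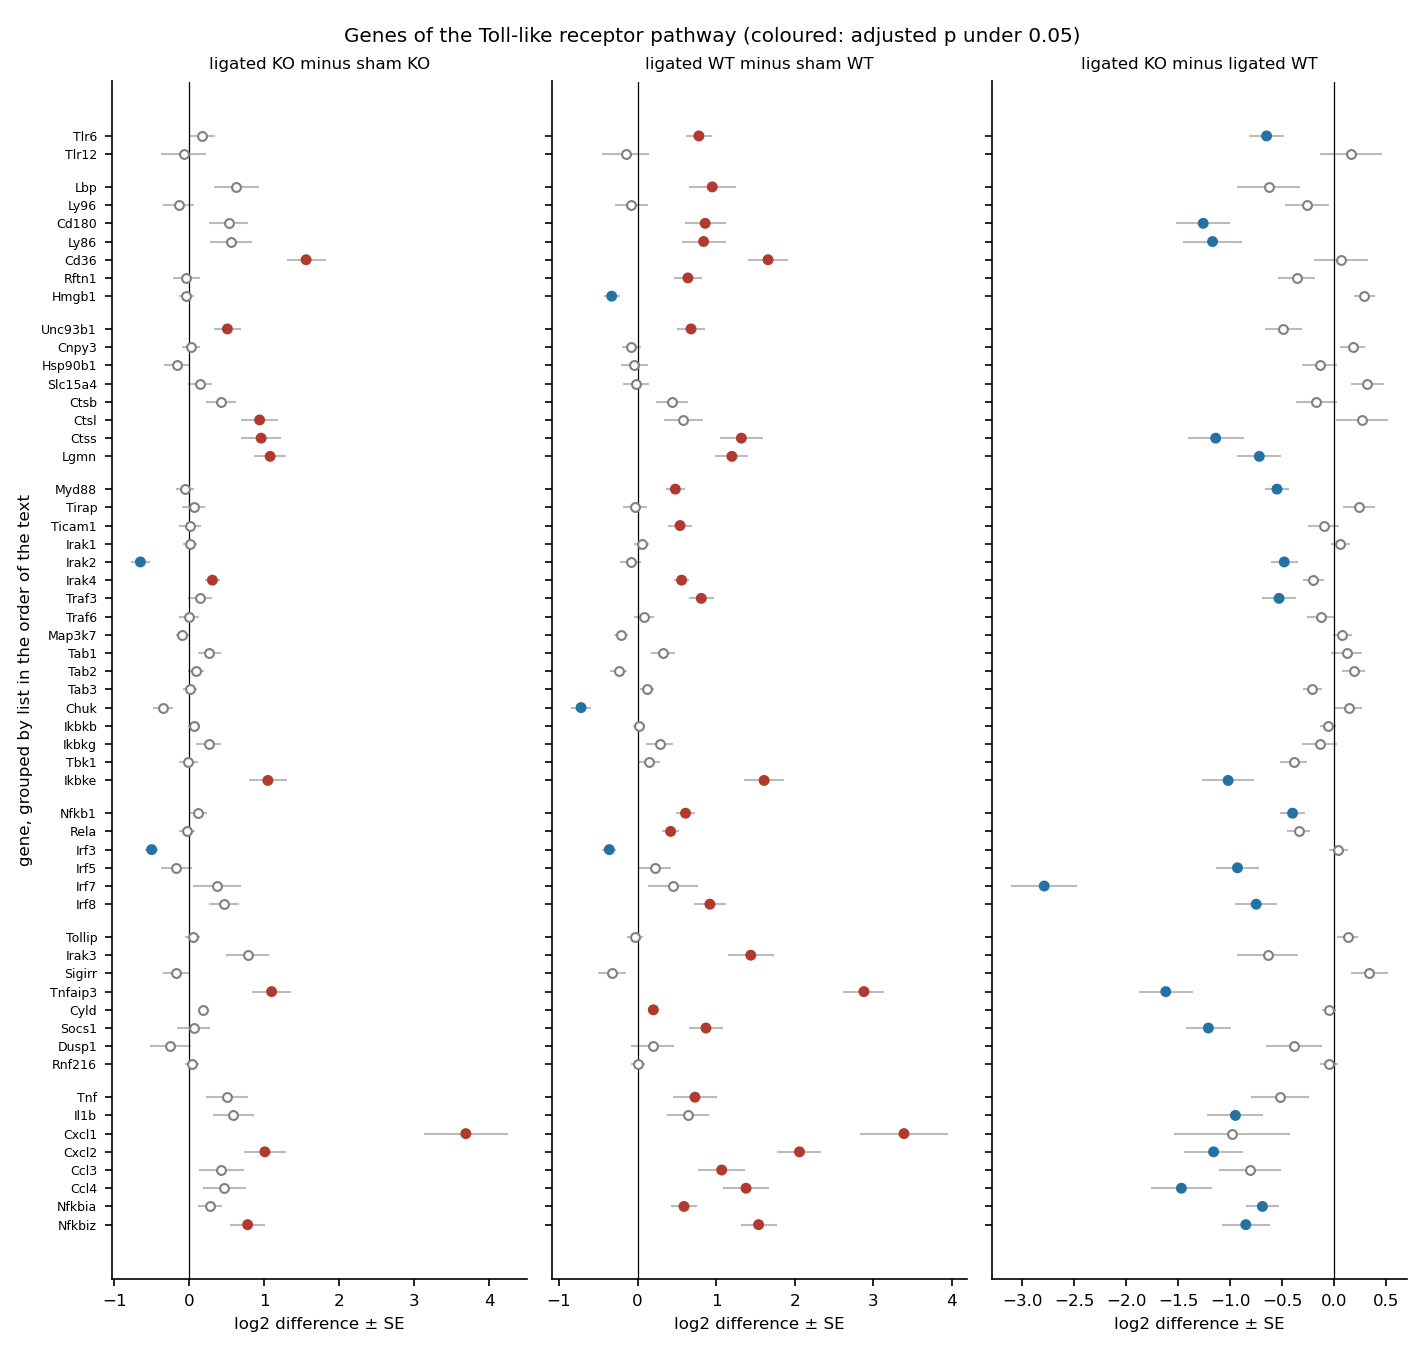
Log2 difference ± SE (horizontal axes) for the 56 tested genes of the 7 pathway lists (vertical axis), for ligation in KO livers, ligation in WT livers and knockout after ligation. Coloured points have an adjusted p under 0.05, red for higher and blue for lower, and open grey points do not. In the right panel the 20 coloured genes are all lower in ligated KO livers, with Irf7 lowest at -2.79.

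Markers of cells known to carry these receptors were summed in each library. The summed FPKM of 6 Kupffer cell markers ran from 117 to 560 in ligated KO livers, 390 to 593 in ligated WT livers, 115 to 186 in sham KO livers and 177 to 303 in sham WT livers. For 7 monocyte and recruited macrophage markers the sum ran from 39.3 to 244 in ligated KO livers, 183 to 253 in ligated WT livers, 61.2 to 117 in sham KO livers and 43.5 to 88.9 in sham WT livers. The 6 neutrophil markers summed to 10.1 to 18.6 in ligated KO livers, 15.7 to 48.3 in ligated WT livers, 2.24 to 3.67 in sham KO livers and 2.85 to 13.5 in sham WT livers. Of the tested markers, 0 of 6 Kupffer cell, 3 of 6 monocyte and 2 of 4 neutrophil markers were lower in ligated KO than in ligated WT livers. On ligation 3, 6 and 4 of them rose in WT livers and 3, 3 and 3 in KO livers. Over all tested genes 5.37% were lower in ligated KO livers, and 18.1% rose on ligation in WT and 12.3% in KO livers. After sham surgery 1 Kupffer cell and 1 monocyte marker were lower in KO livers, where 2.97% of all tested genes passed in either direction. In the interaction 1 monocyte marker passed with a negative difference, as did 0.220% of all tested genes.

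The low macrophage sums of ligated KO livers belonged to BDL_KO_2359 and BDL_KO_2248, at 187 and 117 for Kupffer cells and 91.6 and 39.3 for monocytes. The other 3 ligated KO libraries stood at 440, 560 and 366 for Kupffer cells and 210, 244 and 170 for monocytes, within or close to the ligated WT ranges. For cells known for Tlr9, the 5 plasmacytoid dendritic cell markers summed to 0.506 to 1.18 in ligated KO livers, 0.884 to 1.63 in ligated WT livers, 0.622 to 1.02 in sham KO livers and 0.660 to 0.924 in sham WT livers. The 5 B cell markers summed to 0.131 to 1.60 in ligated KO livers, 1.05 to 1.87 in ligated WT livers, 1.08 to 2.24 in sham KO livers and 1.56 to 3.01 in sham WT livers. Only 1 of the 5 plasmacytoid dendritic cell markers could be tested, and it passed no test. Of these markers Tcf4 ran from 0.467 to 0.852 FPKM over the 20 libraries, and the others stayed at or below 0.607 FPKM. Of 3 tested B cell markers, 1 fell on ligation in WT livers and 1 was lower in ligated KO than in ligated WT livers. Over all tested genes these shares were 17.5% and 5.37%. Sinusoidal endothelial markers summed to 22.1 to 43.0 in ligated KO livers, 17.5 to 28.8 in ligated WT livers, 47.2 to 62.8 in sham KO livers and 42.9 to 52.9 in sham WT livers, and each ligated group lay below the sham group of its genotype.

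The 6 hepatocyte markers, which check the tissue label, summed to 29344 to 51655 in ligated KO livers, 21124 to 31130 in ligated WT livers, 45414 to 57145 in sham KO livers and 41524 to 58655 in sham WT livers. BDL_KO_2359 and BDL_KO_2248 stood at 41555 and 51655, and the other 3 ligated KO libraries at 29344 to 32860. Over all genes the FPKM of BDL_KO_2359 and BDL_KO_2248 summed to 480917 and 524471, against 332878 to 361980 in the other 3. The hepatocyte sums were not corrected for this. Of the 6 hepatocyte markers, 3 fell on ligation in each genotype and 2 were higher in ligated KO than in ligated WT livers. Over all tested genes 12.9% fell in KO livers, 17.5% fell in WT livers and 3.46% were higher in ligated KO livers. The 5 cholangiocyte markers summed to 7.76 to 27.2 in ligated KO livers, with BDL_KO_2359 at 9.35 and BDL_KO_2248 at 7.76, against 21.4 to 30.1 in ligated WT livers, and to 3.71 to 6.43 in sham KO livers and 2.40 to 4.26 in sham WT livers. The 6 stellate cell markers summed to 4.08 to 45.3 in ligated KO livers, 17.7 to 31.8 in ligated WT livers, 11.4 to 17.5 in sham KO livers and 7.02 to 13.0 in sham WT livers. BDL_KO_2359 and BDL_KO_2248 stood at 7.07 and 4.08 for stellate cells, below all sham KO livers, and the other 3 ligated KO libraries at 31.6 to 45.3. What part these cells have in the receptor levels was not tested.

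**Figure D5:**
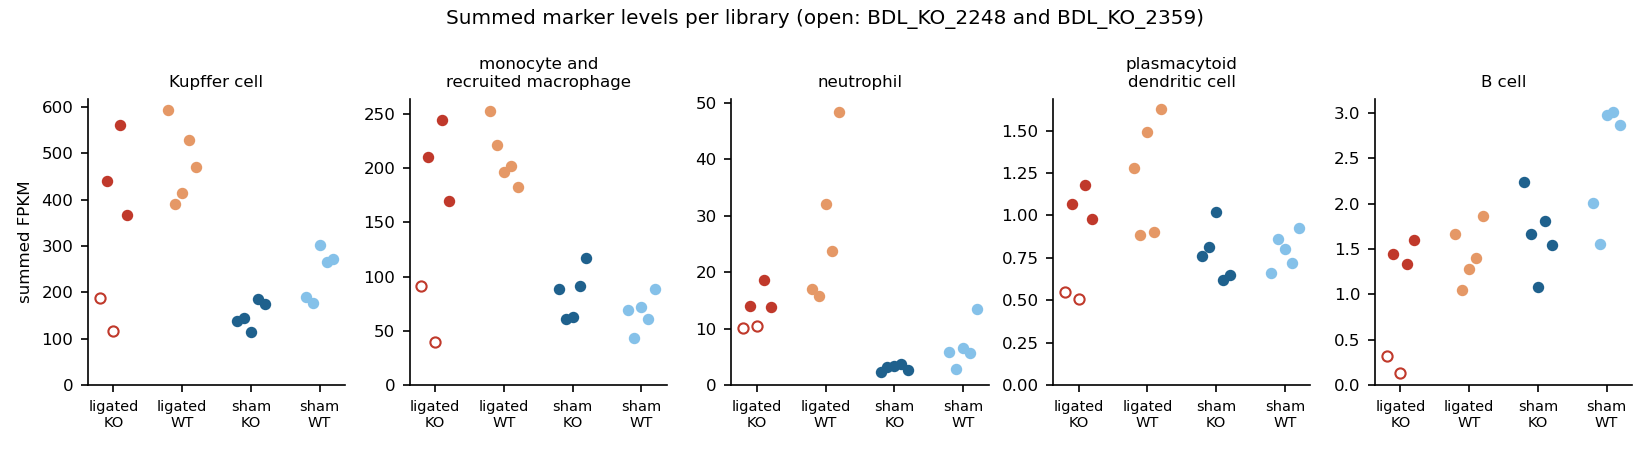
Summed FPKM of the Kupffer cell, monocyte and recruited macrophage, neutrophil, plasmacytoid dendritic cell and B cell markers (vertical axes, from 0) in each library, with ligated KO, ligated WT, sham KO and sham WT livers from left to right. Open points are BDL_KO_2248 and BDL_KO_2359, which lie lowest among ligated KO livers in each of these 5 panels, with Kupffer cell sums of 117 and 187.

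Tlr7, Tlr8 and Tlr13 are X-linked, and the groups held unlike numbers of libraries with Y-linked transcripts. Tlr8 in sham WT livers ran from 0.291 to 0.355 FPKM in the 2 libraries with such transcripts and from 0.780 to 1.03 in the 3 without, and Tlr7 from 0.576 to 0.656 and from 0.844 to 1.10. In ligated WT livers the order was the other way or the ranges overlapped, with Tlr7 at 2.58 to 3.43 FPKM in the 3 libraries with Y-linked transcripts and 2.15 to 2.58 in the 2 without. Within libraries with Y-linked transcripts the difference between ligated KO and ligated WT livers was -1.26 for Tlr7, -0.86 for Tlr8, -1.12 for Tlr13, -1.94 for Tlr9 and -1.36 for Tlr3. Within the others it was -0.75 for Tlr7, -0.51 for Tlr8, -1.12 for Tlr13, -1.36 for Tlr9 and -0.94 for Tlr3. All 7 genes lower in the full fit had negative differences in both kinds of library, with 4 calls by limma among libraries with Y-linked transcripts, where 1.63% of all tested genes were lower, and none among the others, where 0.0569% were.

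As a description of pattern, the genes whose log2 levels ran most like each receptor over the 20 libraries were found by Pearson's r, a value to which the differences between the 4 groups contribute. Tlr2 ran closest to Nfkb2 (r = 0.980), Dapp1 (0.973) and Relb (0.972), and Cd14 to Plaur (0.973), Elovl7 (0.971) and Synpo (0.970). Tlr9 ran closest to Gm33782 (0.963), N4bp1 (0.949) and Treml2 (0.942), and Tlr3 to BE692007 (0.968), Agrn (0.964) and Ddx58 (0.961). Tlr13 ran closest to Sh3pxd2b (0.975), Tlr7 to Ifi207 (0.971), Tlr8 to Arhgap30 (0.976), Tlr1 to Selplg (0.970) and Tlr4 to Laptm5 (0.928). Tlr5, which fell, ran closest to Chrna2 (0.930), Abcd3 (0.917) and Ces1e (0.913).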

How the data were processed

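Polyadenylated liver RNA was extracted with TRIzol and made into libraries with the VAHTS Universal V6 kit, per the labels. The authors deposited FPKM values of 54532 genes, in 1 table of 20 columns. The submitters' processing notes name DESeq2 1.20.0, featureCounts 1.5.0-p3, HISAT2 2.0.5, fastp and CASAVA 1.8, and GRCm38 and mm10, with no role or order. They name no annotation release. Multiplied by GENCODE M21 exonic lengths, low values came out as whole fragments in 97.76 to 98.17% of cases per library (tolerance 0.02), so that the precision of a low value is 1 fragment.

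Groups came from the sample titles. Values were tested as log2(FPKM + 0.5) with limma 3.58.1 in R 4.3.3, in 1 model with a mean per group and trended, robust variances, for the 14059 genes at 0.5 FPKM or more in at least 5 of 20 libraries. Benjamini-Hochberg adjustment ran over all of them, with a threshold of 0.05. The pathway lists, marker lists and the genes named from them followed a rule (up to 4 called genes per list and comparison by size of change, or the 2 most abundant). The genes and lists were chosen with earlier results of these data known. Alternatives were other pseudocounts, filters, scalings and fits, voom on recovered fragments, libraries with or without Y-linked transcripts and the removal of libraries. The pipeline was tested on simulated data. Promoters came from RefSeq. Tables and figures were made in Python 3.11.15 (matplotlib 3.10.9, numpy 2.4.6, pandas 2.3.3). Mice lacking Abcb4 were not analysed here.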

Additional observations from a re-analysis of the deposited data

Results flagged for a closer look

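Tlr9 in ligated KO livers was highest in BDL_KO_2370, at 0.409 FPKM, with the nearest of the other 4 libraries at 0.175 FPKM, a gap of 0.722 of the group's range. The endosomal minus surface difference in ligated KO livers was highest in BDL_KO_2248, at 0.28 log2 units, with the nearest of the others at -0.16, a gap of 0.761 of the range. Of 44 groups of values looked at, these 2 had a library this far from the rest, and chance gives about 1 in 20 groups. The ligation response of Tlr9 differed between KO and WT livers by limma, with an interaction of -1.60 log2 units (limma adjusted p = 0.0146). That call was lost in voom. Tlr9 passed the filter on low values only through ligated WT livers, where it was high, and rests on few fragments in the other groups.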

How the results depend on the processing

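Of the 10 genes, 3 were called for ligation in KO livers, 9 without BDL_KO_2248 and BDL_KO_2359, 1 among libraries with Y-linked transcripts, 0 among those without, and 3 to 8 with each library left out in turn. For ligation in WT livers the count was 10 with any 1 library left out, and 3 among libraries without Y-linked transcripts. For knockout after ligation the count was 7, and it became 4 with only the ligated groups in the fit (Tlr3, Tlr7, Tlr9 and Tlr13), 4 with and 0 without Y-linked transcripts, and 6 to 8 with each library left out. For knockout after sham surgery it stayed 0 in all settings run. In the interaction the count was 1, and it became 0 with a filter at 1 FPKM, with voom and in each kind of library alone, 2 with Y-linked transcripts as a covariate, and 1 to 3 with each library left out. The cause of these changes was not tested, but the fits within 1 kind of library rest on 2 or 3 libraries per group.

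Of the pathway genes, 13 were called for ligation in KO livers, against 5 with and 2 without Y-linked transcripts, 25 without BDL_KO_2248 and BDL_KO_2359, 7 with only the KO groups in the fit and 10 to 19 with each library left out. For ligation in WT livers 31 were called, against 3 without Y-linked transcripts and 28 to 34 with each library left out. For knockout after ligation 20 were called, against 7 with and 0 without Y-linked transcripts, 9 without both libraries, 4 with only the ligated groups and 10 to 23 with each library left out. For knockout after sham surgery 1 was called, against 2 after quantile normalization, 0 in either kind of library alone, 7 without both libraries, 7 with only the sham groups and 1 to 4 with each library left out. In the interaction 1 was called, against 0 with a pseudocount of 0.1, no filter, TPM, scaling to total fragments, voom, the covariate and either kind of library alone, and 0 to 4 with each library left out.

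The endosomal minus surface contrast for ligation in KO livers was 0.21, -0.11 without Tlr5 and 0.11 to 0.25 with each library left out. In WT livers it was 0.52, 0.80 with a pseudocount of 0.1, -0.09 without Tlr5 and 0.45 to 0.58. For knockout after ligation it was -0.37, -0.05 without Tlr5 and -0.47 to -0.31, and for knockout after sham surgery -0.06 and -0.09 to -0.01. Among the 10 genes and the pathway genes that the naming rule picked for a comparison, no called gene changed sign in any setting. Among single-gene results of the 10 genes, 1626 kept their side of the threshold, 39 lost a call and 20 gained one. No paired analysis was possible because each library has a number of its own. The interaction could not be run with fewer than 4 groups. Levels of Tlr9 below 0.5 FPKM rest on few fragments, and differences there are limited by depth.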
